A study of Mus musculus with 5 samples.

Results

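The cells described here are ileal absorptive epithelial cells with a high share of Reg3 transcripts, taken from droplet single-cell RNA sequencing of the mouse distal small intestine. They were chosen by their counts: at least 500 genes and at most 20% mitochondrial UMIs (unique molecular identifiers, each standing for 1 captured transcript), Reg3a, Reg3b and Reg3g together at 1% of UMIs or more, Lyz1 and the Defa genes below 10%, 7 goblet cell genes together below 1%, and fewer than 4 of 10 mitosis genes detected. The rule took 15261 of the 18955 cells that passed the quality limits (80.5%). All mice were C57BL/6, aged 8 to 12 weeks, and had either sham surgery (3 libraries) or small bowel resection, the surgical removal of a length of small intestine (2 libraries). The labels do not say how many mice each library pools, how much bowel was removed or how long after surgery the ileum was taken, so p-values measure the spread between these libraries.

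Reg3b and Reg3g encode secreted C-type lectins with bactericidal activity, and Reg3a belongs to the same gene family. In the mouse ileum they are made by enterocytes and Paneth cells and help to keep bacteria away from the epithelial surface. Their transcription is known to respond to bacteria through MyD88 signalling and to interleukin 22 through STAT3. Enterocytes are born in the crypt and change their expression as they move to the tip of the villus, and host defence genes are known to be most active in its lower part.

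The 250 bases before the annotated start are shown for the 2 genes that carry nearly all Reg3 UMIs, from RefSeq (GRCm38.p6). Capitals mark TATAAA on either strand and TTCNNNGAA, the palindromic letters of a STAT site.

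Reg3b, chr6:78370635-78370884, plus strand: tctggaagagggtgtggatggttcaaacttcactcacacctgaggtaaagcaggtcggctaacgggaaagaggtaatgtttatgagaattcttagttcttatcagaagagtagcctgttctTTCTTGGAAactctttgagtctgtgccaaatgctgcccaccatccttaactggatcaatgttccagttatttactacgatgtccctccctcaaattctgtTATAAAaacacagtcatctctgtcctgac

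Reg3g, chr6:78468875-78469124, minus strand: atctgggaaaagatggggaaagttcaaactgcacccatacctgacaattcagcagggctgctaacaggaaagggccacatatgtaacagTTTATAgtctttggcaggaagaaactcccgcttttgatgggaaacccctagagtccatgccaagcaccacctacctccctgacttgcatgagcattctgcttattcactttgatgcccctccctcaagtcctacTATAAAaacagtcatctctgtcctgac

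Both windows held TATAAA shortly before the start, at base 222 in Reg3b and base 224 in Reg3g, counted from the 5′ end of the window. Reg3g held a further match, on the other strand, at base 90. TTCNNNGAA occurred once in Reg3b, as TTCTTGGAA at base 122, and not in Reg3g. Of 32851 windows of this length, 12.4% held TATAAA and 7.02% held TTCNNNGAA. The aligned windows of Reg3b and Reg3g were 68.4% identical, against 45.1% for Reg3b and Reg3a and 47.5% for Reg3g and Reg3a. These matches describe letters and not bound sites.

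The rule took nearly every absorptive cell. Among the 15800 quality-passed cells that met the Paneth, goblet and mitosis criteria, whatever their Reg3 share, 96.6% reached 1% Reg3, and 539 did not. By library the share was 98.2%, 99.3% and 95.5% in sham 1, 2 and 3, against 93.5% and 96.9% in resection 1 and 2, so the groups overlapped. The resection mean was lower by 2.45 percentage points (97.7% ± 2.00 against 95.2% ± 2.39, SD), with p = 0.3 in an exact permutation test, two-sided, that takes every choice of 2 resection libraries among the 5 (adjusted p = 0.8 over 8 such tests, smallest p possible 0.1). As a share of all quality-passed cells the difference had the other sign, at 4.41 points higher after resection. These 15800 cells are called the absorptive pool here, and the 539 the Reg3-low cells. The selected cells numbered 940, 3205 and 2185 in sham 1, 2 and 3, against 3026 and 5905 in resection 1 and 2, at a median depth of 4403 to 6046 UMIs per cell. Just below the limit, at 0.8 to 1% Reg3, lay 7 to 80 cells per library, and just above it, at 1 to 1.2%, lay 3 to 135.

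The label given to these cells, lower-villus enterocytes, was not borne out. Each pool cell was placed between crypt and tip by a score from 6 villus tip genes (such as Ada and Krt20) against 12 crypt genes (such as Slc12a2 and Stmn1), none of them a Reg3 gene, and ranked within its library. The selected cells are nearly the whole pool that was ranked. Their mean percentile (49.3 to 51.1 in the 5 libraries) is therefore held near the middle by construction. Its difference between the groups (−0.683 points, exact permutation p = 0.4, adjusted p = 0.8) is not read here. In the position bin nearest the crypt, 93.2%, 97.2% and 84.5% of pool cells were selected in sham 1, 2 and 3. Resection 1 and 2 had 93.2% and 91.5% there. In the bin nearest the tip the share was 99.0%, 99.5% and 95.4% in the sham libraries. It was 88.7% and 97.3% in resection 1 and 2. With the limit at 5% Reg3, an alternative added after seeing the data, the mean percentile was 55.2, 51.5 and 53.5 in sham 1, 2 and 3 against 48.4 and 44.9 in resection 1 and 2. These values did not overlap (−6.78 points). The limit was set with the data known and selects again by Reg3 share, so the difference is a description and no p-value is given. Cells at 1% or more are called Reg3-positive absorptive cells below. All 12 enterocyte markers were detected, with a summed level of 21521 to 37966 CPM (counts per 1e6 UMIs) in sham and 49183 to 69656 CPM in resection libraries.

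Libraries differed in ways that the surgery labels do not give. By the root mean square log2 difference over genes, sham 1 lay nearest to resection 1 (0.597) and sham 2 nearest to resection 2 (0.429), while sham 1 and sham 2 differed by 0.750. Sham 1 and resection 1 also had higher median mitochondrial shares in the selected cells (14.1% and 11.9%) than sham 2, sham 3 and resection 2 (8.69%, 7.49% and 9.31%). Values within sham 1 and resection 1 (set A) and within the other 3 libraries (set B) are therefore given beside the results. No label names these sets, and they were read from the same data as the results. Resection 1 also lay nearly as near to resection 2 (0.601) as to sham 1. Total depth in the selected cells ran from 5451405 to 32532325 UMIs per library, and 197 of 19204 barcodes occurred in more than 1 library. The Paneth marker list summed to 1573 to 6883 CPM in the selected sham cells and 2803 to 2823 CPM in the resection cells, and the T cell list to 195 to 447 and 114 to 518 CPM. Of the 525 quality-passed cells with at least 4 T cell genes, 339 were selected.

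Reg3 transcripts were among the most abundant messages of these cells. The median Reg3 share was 4.77%, 9.29% and 8.27% of a cell's UMIs in sham 1, 2 and 3, against 6.79% and 5.58% in resection 1 and 2. The cell-to-cell range was wide, from a 10th percentile of 1.76% to a 90th percentile of 12.4% in resection 2. These shares were used by the rule and are a description. Other cell classes had less. Cells with Paneth genes at 10% or more had medians of 0.542% to 1.28%. Those with goblet genes at 1% or more had 0.635% to 2.80%, and mitotic cells 1.31% to 3.06%. These classes share cells. The goblet class of sham 1 had a median Paneth gene share of 51.1%, against 0.323% to 3.79% in the other libraries. In UMIs, which the depth of a cell's other transcripts does not dilute, the medians were 68 to 135 in the Paneth class, 91.5 to 149 in the goblet class and 252 to 517 in the selected cells. Free RNA can reach every droplet and was not measured here, so a low share cannot be read as a cell's own expression. Paneth cells also make Reg3, so the shares of that class do not measure free RNA. Reg3g was 36.2% to 61.2% of Reg3 UMIs in the Paneth class, against 28.4% to 32.1% in the absorptive pool. The 1% limit of the rule lies within the medians of the Paneth and goblet classes. The 10th percentile of the selected cells in resection 2, at 1.76%, lies above the Paneth medians and within the goblet medians. The selected cells' medians stood above those of the 3 other classes in every library.

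**Figure D1:**
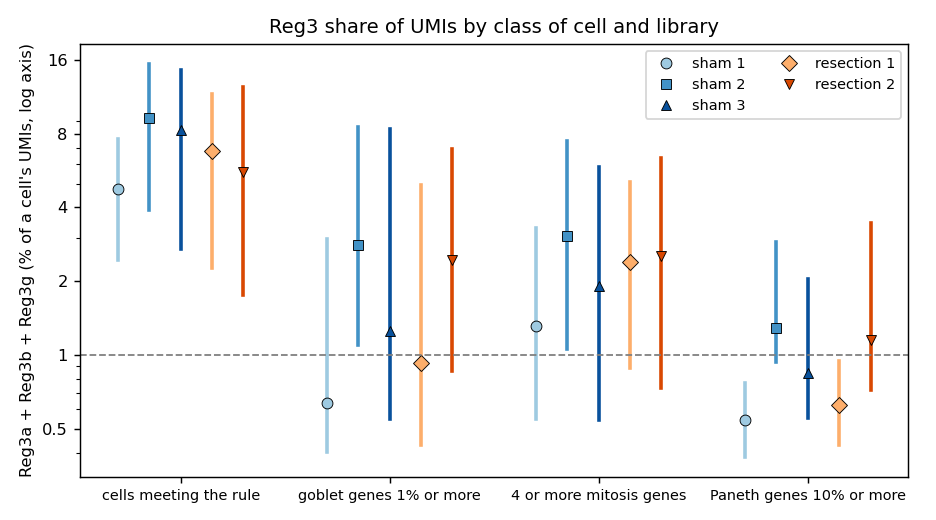
Share of UMIs from Reg3a, Reg3b and Reg3g (vertical, percent, log axis) in 4 classes of cells in each library. Points are medians over cells, lines run from the 10th to the 90th percentile, and the dashed line is the 1% limit of the rule. Selected cells have medians from 4.77% to 9.29%, and cells with Paneth genes at 10% or more from 0.542% to 1.28%. A cell can fall in several of the classes that were not selected.

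Reg3b supplied most of the family's UMIs and Reg3g nearly all of the rest. Over the whole absorptive pool, Reg3b took 3.44%, 6.98% and 5.81% of UMIs in sham 1, 2 and 3, against 4.63% and 4.56% in resection 1 and 2. Reg3g took 1.37%, 2.84% and 2.57% in the sham libraries and 2.07% and 2.17% in the resection libraries. Reg3a stayed between 0.0142% and 0.0345% in all 5 libraries. For each gene the resection libraries lay inside the sham range, and sham 1 was the lowest library.

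The sum of the 3 genes in the pool was 7.70% ± 2.59 (SD, n = 3 libraries) after sham surgery and 6.74% ± 0.0186 (SD, n = 2) after resection. The exact permutation test gave p = 0.7 (adjusted p = 0.933). The sets differed in direction, with resection 1 above sham 1 by 1.90 percentage points and resection 2 below the mean of sham 2 and 3 by 2.38.

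The family's make-up differed more evenly. Reg3g made up 28.3%, 28.8% and 30.5% of Reg3 UMIs in the selected cells of sham 1, 2 and 3, and 30.8% and 32.1% in resection 1 and 2. Both resection libraries lay above the sham range, by a small margin over sham 3. The difference was 2.18 percentage points (29.2% ± 1.16 against 31.4% ± 0.910, SD), with p = 0.2 in the exact permutation test (adjusted p = 0.8), and it was 2.44 in set A and 2.37 in set B. Reg3b mirrored it at 2.19 percentage points lower (p = 0.2, exact permutation test, adjusted p = 0.8). The 3 paralogues are similar in sequence, and how reads shared between them were counted is not given in the sources used here.

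Within a library, cells rich in Reg3b were rich in Reg3g. With every cell thinned to 2000 UMIs, Pearson's r between them was 0.715 to 0.843 over the cells of each library, with 940 to 5905 cells. Reg3a, at far fewer UMIs, had r of 0.128 to 0.341 with Reg3b. These correlations are over cells that share a library and a rule on the sum, and are given as a description. The regenerating-family relatives Reg1 and Reg3d had r with the Reg3 sum of −0.0887 to 0.0232, at levels of 1.91 to 9.25 CPM for Reg1 and 0.826 to 1.35 CPM for Reg3d.

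Along the crypt to tip score, the highest Reg3 level fell in different bins in the 2 groups, though the peak was slight in sham 1 and 3. The pool of each library was split into 5 bins of equal rank, bin 1 nearest the crypt. In sham 1 the Reg3 sum was 3.61% of UMIs in bin 1, 5.07% in bin 2 and 5.02% in bin 5. Sham 2 had 7.29%, 10.5% and 9.60% and sham 3 had 5.01%, 9.76% and 7.88% in the same bins. Resection 1 had 5.70%, 8.06% and 5.68%, and resection 2 had 6.11%, 8.33% and 4.77%. All 5 libraries were thus higher in bin 2 than in bin 1. The resection libraries had their highest value in bin 2, against bin 3 or 4 in the sham libraries. In sham 1, however, the median share over cells stayed at 4.98% to 5.05% from bin 2 to bin 5. In sham 3 it was 9.39% in bin 2 and 9.46% in bin 3.

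The ratio of bin 5 to bin 2 summarises the change towards the tip. It was 0.991, 0.916 and 0.807 in sham 1, 2 and 3, against 0.705 and 0.573 in resection 1 and 2, with no overlap between the groups. On the log2 scale the resection mean was lower by 0.50 (−0.15 ± 0.15 against −0.65 ± 0.21, SD), by 0.49 in set A and by 0.59 in set B. This measure was chosen after its values were seen and was given no test. The bins also differ in depth, with a median of 3537 to 5341 UMIs in bin 5 and 4874 to 6098 in bin 2, and the difference was −0.47 with all cells thinned to 2000 UMIs. Thinning took the ratio to 1.06, 0.962 and 1.06 in sham 1, 2 and 3, so that bin 5 became the higher bin in 2 sham libraries, the first and the third. The resection libraries had 0.744 and 0.739 after thinning. In resection 2 the log2 ratio went from −0.80 to −0.44. The class criteria and position ranks were also redone on the thinned counts, so the bins do not hold the same cells. The pool of sham 3, for example, went from 2289 to 2479 cells.

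**Figure D2:**
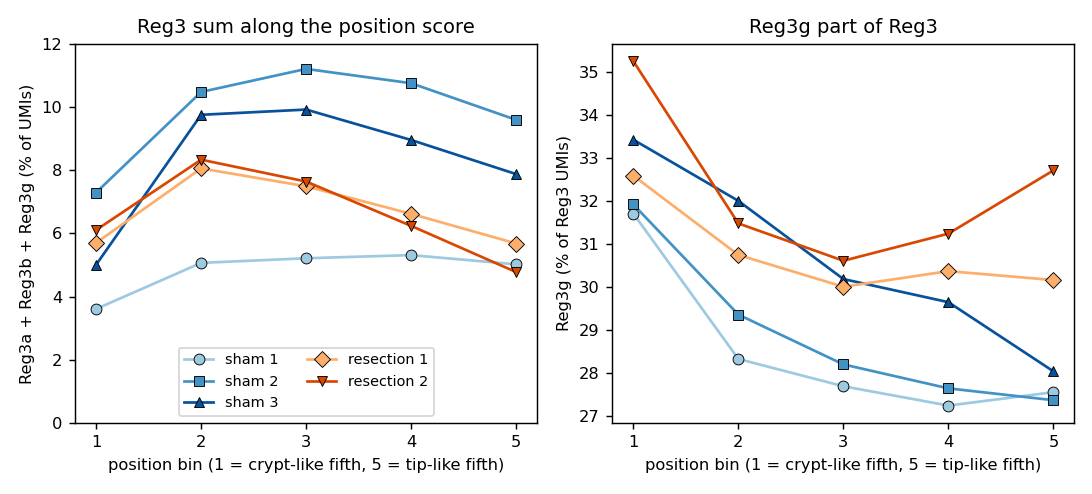
Left, Reg3a, Reg3b and Reg3g UMIs as percent of all UMIs in 5 bins of equal rank along the crypt to tip score, 1 line per library, with bin 1 nearest the crypt. Right, Reg3g as percent of Reg3 UMIs in the same bins, on an axis that does not start at 0. Resection libraries peak in bin 2 and have 5.68% and 4.77% in bin 5, and in bin 5 their Reg3g part is 30.2% and 32.7%, above the 27.4% to 28.0% of the sham libraries.

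The Reg3g part of Reg3 was highest in the crypt-like bin of every library, at 31.7% to 33.4% in sham and 32.6% and 35.3% in resection. In bin 5 it was 27.6%, 27.4% and 28.0% in sham 1, 2 and 3, against 30.2% and 32.7% in resection 1 and 2. The groups thus overlapped next to the crypt and were apart at the tip end.

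Other defence genes had their own places on this axis. Lypd8, a secreted protein that binds flagellated bacteria, was highest in bin 2 of all 5 libraries. Its log2 ratio of bin 5 to bin 2 was −0.23, −0.66 and −0.46 in sham 1, 2 and 3, against −1.41 and −1.32 in resection 1 and 2, so the groups did not overlap. Il18, an inflammasome-processed cytokine, was highest in bin 4, 3 and 3 of the sham libraries and in bin 2 of both resection libraries. Nlrp6, an inflammasome sensor, and Pigr, the transporter of secreted antibodies, were highest in bin 1 everywhere. Saa1, an acute phase protein, was higher in bin 5 than in bin 2 in all 5 libraries, with log2 ratios of 0.64 to 1.27. Gsdmc4, of the pore-forming gasdermins, was highest in bin 1 (log2 ratios −2.20 to −1.78), while Gsdmd was highest in bin 5 (0.76 to 1.26).

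Cells with the most Reg3 were then set against those with the least, as a description, since the rule used these values. The selected cells of each library were ranked by Reg3 share and cut into 3 equal groups, and counts of the top and bottom groups were summed, with Reg3 UMIs left out of the totals. This comparison and its ranking were added after the values were seen. The median Reg3 share was 6.81% to 14.0% in the top group and 2.21% to 5.02% in the bottom group. The top group was higher in all 5 libraries for 855 of 6607 genes (12.9%) and lower for 673 (10.2%). A 1.5-fold excess in every library was met by 4 of 2032 genes with at least 50 CPM (0.197%) and a 1.5-fold deficit by 6 (0.295%).

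Lypd8 led the genes that were higher. It had 2388, 3390 and 3553 CPM in the top group of sham 1, 2 and 3 against 1429, 1498 and 1570 CPM in the bottom group. In resection 1 and 2 it had 2142 and 2720 CPM against 639.8 and 433.1 CPM. The log2 ratios (10 CPM added) were 0.74 to 1.17 in sham and 1.73 and 2.62 in resection libraries. The direction was the same everywhere, and each resection value exceeded each sham value. The split in Reg3 share was also relatively wider in both resection libraries, and its part in these ratios was not tested. Across single cells, r between the Reg3 sum and Lypd8 was 0.284 to 0.624.

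Il18, at rank 3, had log2 ratios of 0.66, 1.13 and 0.77 in sham 1, 2 and 3, against 1.41 and 1.66 in resection 1 and 2, and Casp1, the protease that processes it, 0.52 to 0.995 in the 5 libraries. Saa1 stood at 0.50 to 1.77 and Guca2a, the precursor of the gut hormone guanylin, at 0.56 to 0.87. Gmds, an enzyme of GDP-fucose synthesis, stood at 0.52 to 2.04. Nlrp6, in contrast, was lower in the top group of sham 2 and 3 (−0.10 and −0.22) and had 0.89 in resection 2. Tm4sf20, at rank 2, Glod5, Suox, Ms4a8a, Plac8 and Fabp6 completed the 12 highest-ranked genes, with a smallest value over libraries of 0.52 to 0.67.

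Fabp6, the ileal bile acid binding protein, had log2 ratios of 0.63, 1.14 and 0.81 in sham and 1.76 and 0.72 in resection libraries. Of 11 distal intestine genes at 10 CPM or more, 4 were higher in all 5 libraries and 0 lower. Those 4 were Fabp6, the bile acid uptake transporter Slc10a2 (0.34 to 0.79) and both subunits of the bile acid exporter, Slc51a (0.48 to 1.13) and Slc51b (0.39 to 0.91). The vitamin B12 receptor Cubn, on the same list, had 0.07 in sham 1 and −1.84 in resection 2. Fgf15, the hormone that represses bile acid synthesis, and Nr1h4, the bile acid receptor, were of mixed sign, at −0.27 and −0.20 in sham 2 and 3 for Fgf15 and −0.16 in sham 1 for Nr1h4.

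Of 16 antimicrobial and host defence genes measured, 7 were higher in all 5 libraries and 0 lower, with a median log2 ratio of 0.31 against −0.02 over all genes. They were Lypd8, Il18, Saa1, the oxidase Duox2 (0.12 to 0.97), the chemokine Ccl25 (0.23 to 0.99), the membrane mucin Muc3 (0.27 to 0.57) and Tifa (0.08 to 0.54). Lypd8, and Gsta1 of the next list, are named markers of these cells, and the lists were made with results of these data known. The counts by list are therefore a description. Glutathione transferase and redox genes also had 7 of 16 higher and 0 lower, with a median of 0.28. Gsta1 led these at 0.48, 1.11 and 0.70 in sham and 1.87 and 2.05 in resection libraries, although its correlation with the Reg3 sum over cells was weak (r 0.0427 to 0.206). The peroxidase Gpx2 had 0.43 to 0.97 and Gstp1 0.36 to 0.82. Of 11 genes of STAT3 and MyD88 signalling, 0 were higher in every library and 1 was lower, and Stat3 itself had −0.21 to 0.58.

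**Figure D3:**
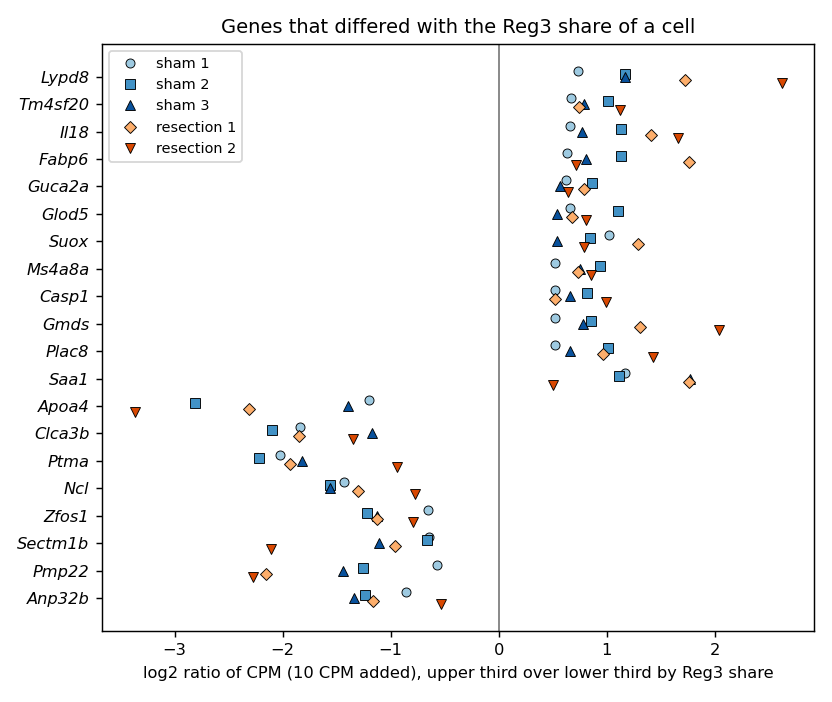
Log2 ratio of CPM (10 CPM added, Reg3 UMIs left out) between the cells with the most and the least Reg3, for the 12 genes ranked highest and the 8 ranked lowest, 1 point per library. All points of a gene lie on the same side of 0. Lypd8 runs from 0.74 to 2.62 and Apoa4 from −3.37 to −1.20.

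Apoa4 led the genes that were lower. Encoding an apolipoprotein of chylomicrons and highest in bin 5 of every library, it had log2 ratios of −1.20, −2.81 and −1.39 in sham and −2.31 and −3.37 in resection libraries. Of 19 genes of proximal intestine, 9 were lower in all 5 libraries and 1, the fructose kinase Khk, was higher. Among the 9 were the lactase gene Lct (−2.38 to −0.58) and the retinol binding protein Rbp2 (−2.18 to −0.41). Of 11 crypt genes measured, 10 were lower in all 5 libraries. Ptma (−2.22 to −0.94), the nucleolar protein Ncl (−1.56 to −0.78), Anp32b (−1.33 to −0.54), Clca3b, Zfos1, Sectm1b and Pmp22 were the others among the 8 lowest, and none of these is on the crypt list.

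With the groups balanced within each position bin, all 20 ranked genes kept their sign in 5 of 5 libraries, and the median log2 ratio was 1.17 for Lypd8, 0.69 for Fabp6 and −2.26 for Apoa4. The top and bottom groups differed in depth, at median UMIs of 4772 and 5348 in sham 1 and 5136 and 3860 in resection 2. T cell transcripts moved with the split as well, since 5 of 6 T cell genes at 10 CPM or more were lower in the top group of all 5 libraries. Ribosomal protein genes took 7.00% to 10.9% of the top group's UMIs and 8.54% to 14.5% of the bottom group's in 4 libraries, whereas in resection 2 the bottom group had the smaller share, at 7.26%. The part of the unequal Reg3 split, depth, T cell RNA and ribosomal share in these ratios was not tested.

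The mean position of the top and bottom groups differed in opposite directions between the sham libraries and resection 2. In sham 1, 2 and 3 the top group lay 11.3, 8.49 and 8.62 percentile points nearer the tip than the bottom group. In resection 1 and 2 it lay nearer the crypt, at −1.25 and −14.1 points. This difference was not tested, and resection 1 lay close to 0.

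The 539 Reg3-low cells were set beside the selected cells in the same way, with no test because the rule made the contrast. They are few, at 17, 21 and 104 cells in sham 1, 2 and 3, against 209 and 188 in resection 1 and 2. The crypt-like bin held 76.5%, 85.7% and 68.3% of them in the sham libraries, but 21.1% and 55.3% in resection 1 and 2. The groups did not overlap. Of 2001 genes with at least 50 CPM, 11 were 2-fold higher in the selected cells in all 5 libraries (0.55%) and 24 were 2-fold lower (1.2%).

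Among the genes that were higher in selected cells was Car4, a membrane carbonic anhydrase, at 117 to 300 CPM against 19.2 to 66.8 CPM in Reg3-low cells. Gsta1 followed, at 55.7 to 228 CPM against 11.1 to 38.8 CPM, with log2 ratios of 1.46 to 2.60. The growth factor gene Areg had ratios of 1.32 to 2.89, Lypd8 1.18 to 2.58 and Fabp6 1.08 to 3.17. Lypd8 and Gsta1, the named markers of these cells that the rule did not use, were higher in 5 of 5 libraries. The rule made this contrast, so it is no check of the markers. The Reg3-low cells of sham 1 and 2 held 89770 and 77356 UMIs in all. Gsta1, at 22.3 and 38.8 CPM there, therefore rests on few UMIs. The lower genes were led by 2 of the crypt list, the ion transporter Slc12a2 at 8.44 to 16.7 CPM against 134 to 335 CPM and Stmn1 at 18.2 to 40.1 against 100.3 to 507 CPM. Clca3b, Lig1, Tubb5, Hmgn1, Cd24a and Ptma, none of them on that list, were next in rank. With Reg3-low cells weighted to the position bins of the selected cells, 12 genes in place of 35 differed 2-fold in every library.

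Resection and sham libraries were then compared over counts summed in the selected cells. No gene of 11255 passed an adjusted p of 0.05 in edgeR's quasi-likelihood test (0%), and 416 had an unadjusted p below 0.05. DESeq2 called 59 of 9944 genes (0.593%), 43 higher and 16 lower after resection, and edgeR with the set as a term called 7 (0.0622%), 6 higher and 1 lower. Both resection libraries lay above the sham range for 9.2% of genes and below it for 6.93%. The 16 genes plotted and named next follow a fixed rule (lowest p, at least 20 CPM, libraries not overlapping). None of them passed in the edgeR fit with no added term, which the adjusted p-values below refer to. However, 5 passed with the set term, 11 with no filter on low counts and 16 in DESeq2. Since the sets were read from these same data, p-values with the set term are a description.

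Slc2a2 headed the genes with higher values after resection. This gene, encoding the glucose transporter GLUT2, had 6.07, 6.31 and 3.60 CPM (TMM-scaled, as are all CPM in this comparison) in sham 1, 2 and 3 and 126 and 63.3 CPM in resection 1 and 2. The groups were far apart. The log2 fold change was 4.16 ± 0.40 (SE; edgeR adjusted p = 0.187, 0.00744 with the set term). Bst1, an ADP-ribosyl cyclase family member, had 30.3, 42.8 and 34.7 CPM in the sham group and 126 and 128 CPM in resection libraries. Its log2 fold change was 1.82 ± 0.24 (edgeR adjusted p = 0.331, 0.0239 with the set term).

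Apoc3, an apolipoprotein of triglyceride-rich particles, had 172, 326 and 163 CPM after sham surgery and 1191 and 1335 CPM after resection (log2 fold change 2.52 ± 0.38). Lct had 53.0, 52.5 and 19.7 against 500.7 and 212 CPM (3.10 ± 0.54). Ephx2, Cyp3a25, Dusp6 and Tlcd2 had log2 fold changes of 1.38 to 2.25. In each of these 8 genes, the lowest resection library exceeded the highest sham library.

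On the lower side, Gstp1, a glutathione transferase, had 54.9, 85.6 and 81.0 CPM in the sham group and 19.8 and 23.2 CPM in resection libraries. Its log2 fold change was −1.78 ± 0.28 (edgeR adjusted p = 0.447, 0.0306 with the set term). The carboxylesterase Ces1f had 83.7, 78.2 and 62.1 against 33.7 and 32.0 CPM (−1.18 ± 0.24). The heat shock gene Hspa1a, the tight junction genes Cldn4 and Cldn23, Krt7, Ccdc71l and tissue factor F3 had log2 fold changes of −2.01 to −0.93. Again the groups did not overlap.

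**Figure D4:**
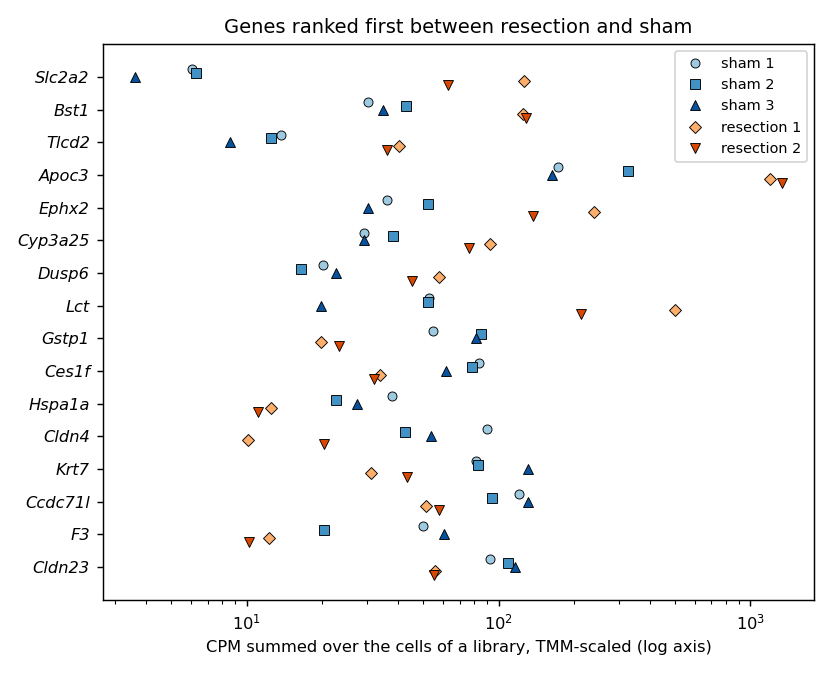
TMM-scaled CPM (log axis) in the Reg3-positive absorptive cells of each library, for the 8 genes with higher and the 8 with lower values after resection that the naming rule chose. In each gene both resection libraries lie outside the sham range. None of the 16 passed in the edgeR fit with no added term, and 5 passed with the set term.

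Genes of the proximal intestine were mostly higher after resection in these ileal cells. Of 22 tested, 21 had a positive log2 fold change and 15 had both resection libraries above the sham range, with a median of 1.65 (1.74 in set A and 1.42 in set B) against −0.02 over all genes. Over all 11255 genes, 5296 had a positive and 5959 a negative value, and 9.2% had both resection libraries above the sham range. The proximal genes were listed with results of these data known, so their direction is not independent evidence. Apoa4 had 440, 578 and 114 CPM in the sham group and 5367 and 3205 CPM in resection libraries (3.51 ± 0.67, edgeR adjusted p = 0.542). Cyp2b10 had 2.08, 1.90 and 1.54 against 38.9 and 13.3 CPM (3.84 ± 0.48, edgeR adjusted p = 0.331, 0.0212 with the set term). All 9 sugar uptake and disaccharidase genes and 16 of 17 lipid absorption genes also had positive values, with medians of 0.76 and 0.83. Several genes, Slc2a2 and Apoc3 among them, stand in more than 1 list.

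Defence genes did not share that pattern. Of 22 antimicrobial and host defence genes, 7 had positive and 15 negative values, with a median of −0.32, and 0 lay above and 1 below the sham range in both resection libraries. Over all 11255 genes, 5296 values were positive and 5959 negative, with 9.2% of genes above and 6.93% below that range. Lypd8 had 1548, 2463 and 2469 CPM in the sham group and 1176 and 1618 CPM in resection libraries. The groups overlapped, and its log2 fold change was −0.63 ± 0.36 (edgeR adjusted p = 0.9999). Gsta1 had 68.5, 155, 244 and 50.6, 118 CPM in the same order (−0.88 ± 0.58, edgeR adjusted p = 0.9999). Of 15 STAT3 and MyD88 genes, 13 had negative values with a median of −0.10, and 0 lay outside the sham range. Il22ra1, the receptor subunit for interleukin 22, was at 0.923 to 1.65 CPM in all libraries, here without TMM scaling.

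Among the 4 gasdermins tested, Gsdmc2, Gsdmc3 and Gsdmc4 lay below the sham range and Gsdmd above it, where 6.93% and 9.2% of all genes lay. Gsdmc4 had 60.2, 57.1 and 65.7 CPM in the sham group and 35.9 and 43.3 CPM in resection libraries (−0.62 ± 0.22, edgeR adjusted p = 0.9999). Gsdmd had 210, 311 and 289 against 368 and 392 CPM (0.49 ± 0.28, edgeR adjusted p = 0.9999). The distal list was mixed, with 8 positive and 5 negative values. Fabp6 had 24001, 25192 and 37584 CPM in the sham group and 5573 and 19561 CPM in resection libraries (−1.20 ± 0.59), and Cubn 86.2, 128 and 78.3 against 266 and 206 CPM (1.27 ± 0.30).

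The other lists were mixed. For comparison, 5296 values were positive and 5959 negative over all 11255 genes, and 6.93% of genes lay below the sham range in both resection libraries. Of 19 redox genes, 4 lay below the sham range in both resection libraries, with a list median of 0.08 in set A and −0.18 in set B. Of 8 genes of MHC class II presentation, 7 had negative values, but the list median was −1.45 in set A and 0.38 in set B. Interferon-stimulated genes had 8 of 12 negative values, and the 2 that lay below the sham range were Oas1a (22.4, 8.55 and 8.81 CPM against 6.51 and 3.73) and Bst2 (22.5, 16.2 and 17.8 against 13.5 and 12.0). Among amino acid and peptide uptake genes, 11 of 16 had positive values. The glutamate transporter Slc1a1 had 102, 79.9 and 92.6 CPM after sham surgery and 59.3 and 55.0 CPM after resection (−0.68 ± 0.23, edgeR adjusted p = 0.9999).

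Last, the resection difference in the selected cells was compared with that in the Reg3-low cells of the same libraries, by an interaction term in edgeR. It called 61 of 10298 genes (0.592%), 1 higher and 60 lower (0.583%) in the selected cells, and 978 had an unadjusted p below 0.05. The call rests on few cells, since sham 1 and 2 gave 17 and 21 Reg3-low cells. With the Reg3 limit at 0.5% it called 0 genes, and at 2% it called 2223, and without sham 3 it called 1.

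CPM in this comparison are TMM-scaled over the selected and Reg3-low sums together, so they differ from the levels given above for the same cells. On this scale Fabp6 had 28558, 27790 and 42321 CPM in the selected sham cells and 6470 and 20996 in the resection cells. In Reg3-low cells it had 4906, 2008 and 6331 CPM after sham surgery and 2819 and 8538 CPM after resection. The interaction was −1.76 ± 0.36 on the log2 scale (edgeR adjusted p = 0.00477). This call was lost without sham 2 (edgeR adjusted p = 0.356) and without sham 3 (0.218), at a Paneth limit of 2%, a mitochondrial limit of 10% and Reg3 limits of 0.5% and 5%, and at 5% the estimate was −0.11. Acta1, an actin of muscle, stood at 71.6 to 112 CPM in all selected cells, but had 1, 0 and 5 UMIs in the Reg3-low cells of sham 1, 2 and 3 against 86 and 21 in resection 1 and 2 (−3.31 ± 0.63, edgeR adjusted p = 0.00154). Its call was lost without sham 3 (edgeR adjusted p = 0.188) and without resection 1 among other settings, and at 5% Reg3 the estimate was −0.06. Slc13a1, a sulfate transporter, had 0, 1 and 48 against 391 and 29 UMIs in Reg3-low cells (−2.25 ± 0.47, edgeR adjusted p = 0.00477). Its call was lost, among other settings, with the set term (edgeR adjusted p = 0.149) and without sham 1 (0.0903), and without resection 1 the estimate was −0.69. Without sham 3 it was −5.05. The Reg3-low cells lay nearer the crypt in the sham than in the resection libraries, as given above, and the part of this in the interaction was not tested. By list, 5 of 11 distal genes, 4 of 16 amino acid and peptide uptake genes and 3 of 12 enterocyte genes were called, all lower. None of the 20 antimicrobial and host defence genes tested was called.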

How the data were processed

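Each library is a droplet single-cell RNA sequencing run (10x Chromium 3′, v2 chemistry, per the labels). The authors deposited raw UMI counts per gene and cell, without normalization. Per the labels the matrices came from Cell Ranger, whose version is given with a question mark, and the submitters' processing notes name mm10 and GRCm38. The lowest total per cell was 2354 to 3963 UMIs between libraries. Doublets were kept in the main analysis.

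The library was the replicate. Counts were summed per library over the selected cells and tested with edgeR 4.0.16 (R 4.3.3, filterByExpr, TMM scaling, quasi-likelihood F-test, two-sided, Benjamini-Hochberg, threshold 0.05). Shares used an exact permutation test over 10 splits. The edgeR step was checked on simulated counts. Alternatives were DESeq2 1.42.0, other thresholds, thinning to 2000 UMIs, removal of 751 scored doublets and left-out libraries. Members and gene lists were chosen with earlier results of these data known. Named genes were the 8 higher and 8 lower of lowest p with a mean of 20 CPM or more and no overlap between the groups, the 12 higher and 8 lower of each ranked contrast within libraries (10 CPM added, at least 50 CPM), 3 per direction of the interaction, 2 per list and the 5 markers. Other genes are named as examples, chosen after their values were seen. Promoters were read from RefSeq (GRCm38.p6), which held all 5 markers. A gene that the naming rule chose is not reported here.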

Additional observations from a re-analysis of the deposited data

Results flagged for a closer look

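The position of Reg3-rich cells differed in direction between the sham libraries and resection 2. In the selected cells, the top group by Reg3 share lay nearer the tip than the bottom group by 11.3, 8.49 and 8.62 percentile points in sham 1, 2 and 3. In resection 1 and 2 it lay at −1.25 and −14.1 points. Resection 1 had no steady trend, since its bottom, middle and top groups lay at mean percentiles of 51.1, 47.0 and 49.9. The opposite direction thus rests on resection 2, and the difference between the surgeries was not tested. The top group was shallower than the bottom group in sham 1 (median 4772 against 5348 UMIs) and deeper in the other libraries. The part of depth in these positions was not tested.

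The interaction term in edgeR called 4 named genes for their resection change in selected against Reg3-low cells, 2 populations that the rule itself split. The Reg3-low cells numbered 17, 21 and 104 in sham 1, 2 and 3, against 209 and 188 in resection 1 and 2. The crypt-like bin held 76.5%, 85.7% and 68.3% of them in the sham libraries, against 21.1% and 55.3% in resection 1 and 2. The part of this difference in the calls was not tested. Gm26917 had 1.45 on the log2 scale (adjusted p = 0.0486, with 203 of its UMIs in the 17 Reg3-low cells of sham 1). Acta1 had −3.31, Fabp6 −1.76 and Slc13a1 −2.25, with adjusted p of 0.00154, 0.00477 and 0.00477 in edgeR. Each of these 4 calls was lost under some alternatives. Without sham 3 the edgeR adjusted p was 0.188 for Acta1, 0.218 for Fabp6 and 0.180 for Gm26917, and without sham 1 it was 0.0903 for Slc13a1 and 0.925 for Gm26917. A mitochondrial limit of 10% and a Reg3 limit of 0.5% ended the call of all 4, and the set term that of Slc13a1 (edgeR adjusted p = 0.149). Ccnd1 and Cluh, next in rank on the higher side, had 1.17 and 1.18 with edgeR adjusted p of 0.136 and 0.157.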

How the results depend on the processing

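As a share of all quality-passed cells, in place of the absorptive pool, the selected cells were 4.41 percentage points higher after resection, where the pool share was 2.45 lower (95.2% against 97.7%, exact permutation p = 0.3 for each). At Reg3 limits of 0.5%, 2% and 5% the pool share difference was −0.691, −8.03 and −9.13 points, and the position difference, −0.683 at the 1% limit, was −0.132, −2.55 and −6.78. Leaving out 1 library at a time, the pool share difference was −4.14 to −0.762, the Reg3g difference 1.53 to 2.83, the Reg3b difference −2.88 to −1.54 and the position difference −1.27 to −0.0957, and the bin 5 to bin 2 difference was −0.65 to −0.36. The alternatives with a Reg3 limit of 5%, the bin ratio and its alternatives, the Reg3 groups balanced by position and the set of cells without the lowest bin were added after seeing the data.

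The count of genes between resection and sham was 0 in edgeR, 59 in DESeq2, 59 with no filter on low counts, 7 with the set as a term, 7 at a mitochondrial limit of 10%, 2 after thinning, and 0 to 2 with 1 library left out (2 without resection 2). It stayed at 0 with DESeq2 size factors, doublets removed, a Paneth limit of 2% and Reg3 limits of 0.5%, 2% and 5%. Sham and resection share replicate numbers 1 and 2, and the labels do not say that they pair libraries. With the replicate block, 210 genes were called, among them all 16 plotted genes (edgeR adjusted p of 3.05e-05 to 0.0243), and the interaction called 124. Deviations from the group means of same-numbered libraries had correlations of 0.572 and 0.369 over genes in 2 pairs. With 2 resection libraries, the deviation of one is the opposite of the other's. The correlations are therefore not independent and cannot show that the numbers pair libraries. With the block the pool share difference was −3.56, the Reg3g difference 2.83 and the bin ratio difference −0.58.

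The interaction count of 61 became 17 with DESeq2 size factors, 31 with no filter, 6 with the set as a term, 0 at a Reg3 limit of 0.5%, 2223 at 2%, 395 at 5%, 5 at a Paneth limit of 2%, 0 at a mitochondrial limit of 10%, 107 after thinning and 1 to 346 with 1 library left out (5, 10 and 1 without sham 1, 2 and 3, 2 and 346 without resection 1 and 2). The count of 35 genes at 2-fold against Reg3-low cells became 23, 20 and 1 at Reg3 limits of 0.5%, 2% and 5%, 54 at a mitochondrial limit of 10%, 12 with the position-weighted comparator and 35 to 167 with 1 library left out (167 without resection 1). Of the 16 plotted genes, 3 passed at a mitochondrial limit of 10%, 1 after thinning and 1 without resection 2. Among named genes, 68 of 715 values for resection against sham passed the threshold under an alternative and none of these changed sign, 25 of 96 values of the interaction lost their call and 6 gained one, and 45 of 280 values against Reg3-low cells moved by more than the spread between libraries. The cause of these changes was not tested. A mitochondrial limit of 10% left 42 pool cells in sham 1, and the Reg3-low cells of sham 2 held 77356 UMIs, so a single UMI there is 12.9 CPM.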
